A study of Homo sapiens with 18 samples.

Results

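Epithelial-to-mesenchymal transition (EMT) describes the loss of cell-cell junctions and the gain of motile, matrix-producing features by an epithelial cell, and a set of 9 genes long used to follow it was examined: the cadherins *CDH1*, *CDH2* and *CDH3*, the epithelial surface gene *EPCAM*, the mesenchymal genes *VIM* and *FN1*, and the transcription factors *ZEB1*, *ZEB2* and *SNAI2*. The genes were chosen by symbol, with the Ensembl identifiers of the deposited table joined to GENCODE 44, and 7 of the 9 were found among 16575 genes. *ZEB1* and *ZEB2* were not analysed here. All 7 had at least 5 CPM in at least 1 library, as did 13022 genes in all, although *CDH2* and *VIM* reached that level in libraries of CAL-29 alone.

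In an epithelium, E-cadherin (*CDH1*) holds neighbouring cells together at adherens junctions, where its tail binds catenins that link it to actin. During EMT, repressors of the SNAI and ZEB families bind E-box motifs of *CDH1* and reduce its transcription, while N-cadherin (*CDH2*), the intermediate filament vimentin (*VIM*) and the matrix protein fibronectin (*FN1*) increase. In bladder cancer, P-cadherin (*CDH3*) marks basal urothelial cells, and tumours can hold epithelial and mesenchymal genes together. AP-2 transcription factors are known to act on *CDH1* in other epithelia, and WWOX binds AP-2 proteins in the cytoplasm.

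The measurements came from CAGE-seq, in which reads begin at the cap of the RNA, so that a transcript gives 1 tag whatever its length and levels in CPM, the tags of a gene scaled to the library total, can be compared between genes. There were 18 libraries, 6 variants in each of 3 bladder carcinoma lines (CAL-29, HT-1376, RT-112), with 1 library per variant and line. Each variant had 2 stable lentiviral transductions. The first letter gives the first transduction (K, blank control; W, WWOX in pLenti-GIII-CMV-GFP-2A-Puro) and the second letter the next (K, blank control; A, AP-2α, or C, AP-2γ, both in pLKO-Neo-CMV). KK therefore carried both blanks, KA and KC an AP-2 factor alone, WK WWOX alone, and WA and WC, the rescue variants, both. All variants, KK included, had passed puromycin and G418 selection, and the vectors used the CMV promoter, not that of the gene. RT-112 was grown in RPMI-1640, HT-1376 in high-glucose DMEM and CAL-29 in DMEM, so line and medium cannot be told apart.

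The libraries held 13357102 to 17958572 reads assigned to genes, and a level of 0 allowed up to 3 reads, which were worth 0.158 to 0.213 CPM. The library labelled CAL-29 KC stood apart, with a median Pearson r across genes of 0.940 to the HT-1376 libraries and 0.741 to the other CAL-29 libraries. It is given apart from the 17 others below. *TFAP2C*, the gene of AP-2γ, was at 179.87 CPM in the library labelled RT-112 WA, against 56.2 CPM in RT-112 WK, and results were also computed without it. *WWOX* itself, whose vector transcript starts in the CMV promoter and need not be counted at the native gene, was higher in WK than in KK in CAL-29 (154.92 and 63.68 CPM) but not in RT-112 (22.33 and 26.04 CPM) or HT-1376 (18.58 and 22.36 CPM), so its level did not check the first transduction in those lines. Of 10 urothelial and epithelial markers, all 10 had a mean above 1 CPM in CAL-29, 9 in RT-112 and 8 in HT-1376, and *UPK3A* was listed at 0 in all RT-112 libraries.

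The sequences before the start sites of *CDH2*, *VIM* and *FN1*, the mesenchymal genes of the group, are shown because CAGE counts such starts and AP-2 factors were overexpressed. Windows for *CDH1*, *CDH3*, *EPCAM* and *SNAI2* were not available. The deposited values are summed by gene, so the start in use was not analysed here. They are RefSeq windows on GRCh38.p14 that end shortly after the annotated start, read along the strand of the gene. Capitals mark GCCNNNGGC, a form of the AP-2 motif, searched on both strands.
CDH2 (chr18:28177081-28177380, minus strand): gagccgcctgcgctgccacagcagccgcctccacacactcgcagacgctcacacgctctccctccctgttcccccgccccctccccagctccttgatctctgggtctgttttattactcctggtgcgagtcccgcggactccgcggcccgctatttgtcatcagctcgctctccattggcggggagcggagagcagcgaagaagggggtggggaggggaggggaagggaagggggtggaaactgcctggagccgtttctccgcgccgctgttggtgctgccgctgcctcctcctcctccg
VIM (chr10:17227991-17228290, plus strand): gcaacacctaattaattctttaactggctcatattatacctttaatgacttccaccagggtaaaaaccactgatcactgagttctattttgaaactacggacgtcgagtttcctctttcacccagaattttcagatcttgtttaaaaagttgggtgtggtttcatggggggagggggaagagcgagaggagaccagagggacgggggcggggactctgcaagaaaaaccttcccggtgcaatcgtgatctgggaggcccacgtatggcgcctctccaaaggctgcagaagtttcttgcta
FN1 (chr2:215436019-215436318, minus strand): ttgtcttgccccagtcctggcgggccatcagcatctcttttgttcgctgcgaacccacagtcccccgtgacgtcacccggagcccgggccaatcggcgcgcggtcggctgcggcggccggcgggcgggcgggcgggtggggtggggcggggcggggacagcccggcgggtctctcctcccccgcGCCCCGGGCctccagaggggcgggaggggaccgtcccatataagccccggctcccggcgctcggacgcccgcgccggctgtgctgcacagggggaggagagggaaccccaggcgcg
The *FN1* window held 1 match, which began at −66 from the start, and the windows of *CDH2* and *VIM* held none. Among all 35116 windows of this length, 23.2% held at least 1. CACCTG, the E-box bound by SNAI and ZEB factors, was in none of the 3 windows and in 20.59% of all. GC content was 76.67% for *FN1*, 67% for the *CDH2* window shown and 48% for *VIM*. Another *CDH2* window (chr18:28036592-28036891) held neither motif and had a GC content of 40.67%. A match is a description of the sequence alone.

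The first question was how the levels of these genes differed between the lines. All 7 were higher in CAL-29 than in RT-112 and HT-1376, the epithelial genes *CDH1*, *CDH3* and *EPCAM* together with the mesenchymal *CDH2*, *VIM* and *FN1* and the repressor gene *SNAI2*. The values that follow are over the 6 libraries of RT-112, the 6 of HT-1376 and the 5 of CAL-29. The variants of a line served as its repeated libraries, and tests over them measure the spread between transductants of 1 line, not between tumours.

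*CDH1*, on chromosome 16 from 68737292 to 68835537, had 91.75 to 137.46 CPM in RT-112 (median 97.85), 74.24 to 167.84 CPM in HT-1376 (median 91.85) and 271.70 to 831.05 CPM in CAL-29 (median 570.7). No CAL-29 library overlapped those of the other lines. The mean was 104.7 ± 17.3 CPM in RT-112 (SD, n = 6), 108.8 ± 38.7 CPM in HT-1376 (SD, n = 6) and 563.1 ± 220.4 CPM in CAL-29 (SD, n = 5). *EPCAM*, which encodes a homophilic adhesion molecule of epithelia and lies on chromosome 2 from 47345158 to 47387601, had 29.90 to 66.87 CPM in RT-112, 20.87 to 78.41 CPM in HT-1376 and 115.55 to 193.85 CPM in CAL-29. It too was higher in every CAL-29 library than in any of the others.

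*CDH3* lies beside *CDH1*, from 68636189 to 68727468 on the same strand, with 9824 bases between its end and the start of *CDH1*. Its levels were 107.15 to 154.16 CPM in RT-112 (median 125.6), 75.63 to 285.97 CPM in HT-1376 (median 179.9) and 213.43 to 355.21 CPM in CAL-29 (median 289.7). CAL-29 was above RT-112 throughout but overlapped with HT-1376. *CDH3* was the steadiest of the 5 genes with reads in every RT-112 library, where the highest library was 1.44 times the lowest, and spread 3.78-fold in HT-1376.

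*VIM*, on chromosome 10 from 17228241 to 17237593, was listed at 0 in all 12 libraries of RT-112 and HT-1376. In CAL-29 it was 19.73 CPM in KK, 1.88 in KA, 0.11 in WK, 0.11 in WA and 1.57 in WC. The KK level was at least 119-fold higher than the limit of 3 reads in RT-112 KK, whereas WK and WA held 2 reads each and lay within that limit. In these CAL-29 libraries the reads on *VIM* thus came mainly from KK, with 352 of 418.

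*CDH2*, on chromosome 18 from 27932879 to 28177946, had 0 to 0.36 CPM in RT-112 and 0 to 0.06 CPM in HT-1376, that is, at most 6 reads in a library. In CAL-29 it was 17.88 CPM in KK, 7.02 in KA, 0.94 in WK, 3.60 in WA and 6.19 in WC. The KK level was at least 108-fold higher than the limit of 3 reads in RT-112 KK and at least 90.6-fold higher than that in HT-1376 KK. Among the CAL-29 libraries *CDH2* spread 19.0-fold, and KK was the highest for *CDH2* as for *VIM*.

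*FN1*, on chromosome 2 from 215360440 to 215436073, was the most variable abundant gene of the group. It had 4.37 to 23.33 CPM in RT-112 (median 7.24), 17.30 to 82.44 CPM in HT-1376 (median 35.1) and 32.22 to 998.95 CPM in CAL-29 (median 420.8). HT-1376 and CAL-29 overlapped, since CAL-29 WC, at 32.22 CPM, was below HT-1376 KA, KC and WA. RT-112 lay below every CAL-29 library.

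*SNAI2*, which encodes Slug and lies on chromosome 8 from 48917598 to 48921740, had 19.56 to 35.67 CPM in RT-112, 8.93 to 32.97 CPM in HT-1376 and 48.99 to 91.54 CPM in CAL-29. All CAL-29 libraries were above the others, and RT-112 and HT-1376 overlapped.

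**Figure D1:**
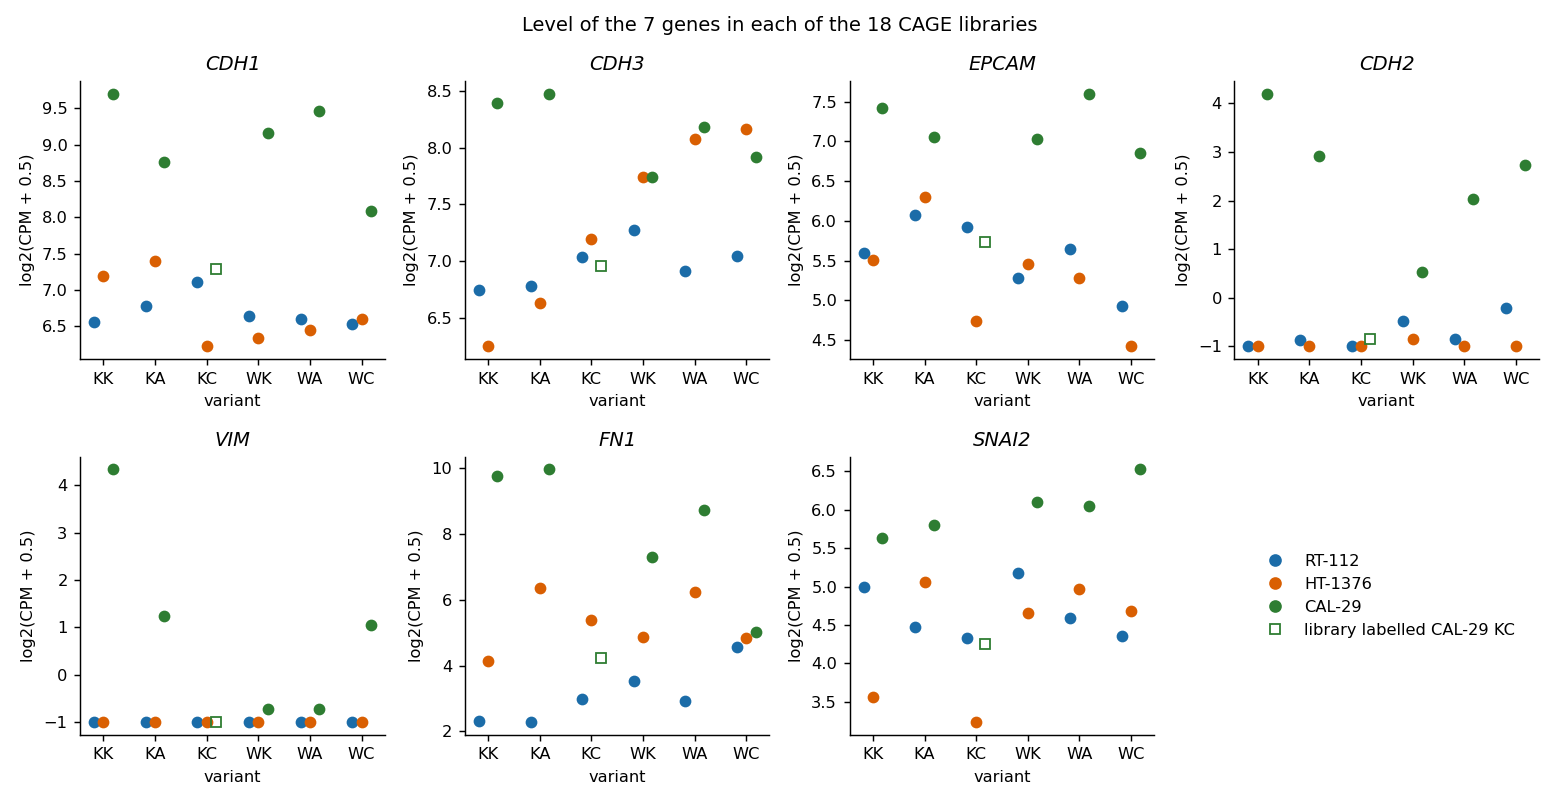
Each panel plots 1 gene on the log2(CPM + 0.5) scale (vertical axis) against the 6 variants (horizontal axis), with 1 point per library coloured by cell line and an open square for the library labelled CAL-29 KC. CAL-29 points (n = 5) lie above both other lines for *CDH1*, *EPCAM*, *CDH2* and *SNAI2*, and the open square lies among the HT-1376 points.

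On the log2(CPM + 0.5) scale, with the variant as a factor in limma, all 7 genes passed an adjusted p of 0.05 as higher in CAL-29 than in RT-112, where 56.2% of the 13022 genes tested were called higher in CAL-29. The same 7 were higher in CAL-29 than in HT-1376, where 43.4% of genes were. *CDH2* and *VIM* had to differ, since they passed the filter through CAL-29. The median log2FC of all genes was itself −0.84 in RT-112/CAL-29 and −0.47 in HT-1376/CAL-29, so that most genes had lower CPM in the first line of each pair. After TMM scaling, these medians were −0.18 and −0.11, and the genes called higher in CAL-29 were 5048 of 9056 called in RT-112/CAL-29, against 7320 of 9314 as deposited. In HT-1376/CAL-29 they were 4016 of 7428, against 5646 of 7944.

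The log2FC of *FN1* was −5.05 in RT-112/CAL-29 (SE 0.76, adjusted p = 5.05e-05) and −2.84 in HT-1376/CAL-29 (SE 0.76, adjusted p = 0.00563). That of *CDH1* was −2.33 in both, or about 0.199 of the CAL-29 level. *EPCAM* had −1.60 and −1.89, *SNAI2* −1.22 and −1.51, *CDH2* −3.19 and −3.43, and *VIM* −2.04 in both, the last 2 genes being understated on a scale with a pseudocount. These values were all beyond the median of all genes in the same comparison. *CDH3* had −1.17 (adjusted p = 0.00316) and −0.79 (adjusted p = 0.0345), and after TMM scaling its values of −0.44 and −0.42 did not pass (adjusted p = 0.218 and 0.261). *SNAI2* in RT-112/CAL-29 was likewise not called after TMM scaling (log2FC −0.51, adjusted p = 0.115). *CDH3* in HT-1376/CAL-29 also did not pass without the KK (adjusted p = 0.183), KA (0.162) or KC (0.0538) libraries.

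Between RT-112 and HT-1376, where 61.9% of all genes were called, *FN1* alone of the 7 passed, with a log2FC of −2.21 (SE 0.71, adjusted p = 0.0150). The call was lost without the KA libraries (adjusted p = 0.0523), without the WA libraries (0.0607) and with edgeR (0.0526). *CDH1* differed by 0.00 (SE 0.24) and *EPCAM* by 0.29 (SE 0.22). With the median of all genes at −0.43 in this comparison, TMM scaling moved *EPCAM* to 0.64 (adjusted p = 0.0136) and *SNAI2* from 0.29 to 0.64 (adjusted p = 0.0468). A difference of *CDH3* (−0.37, adjusted p = 0.257) was not shown.

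In the library labelled CAL-29 KC there were 155.24 CPM of *CDH1*, 123.58 of *CDH3*, 52.88 of *EPCAM*, 18.24 of *FN1*, 18.60 of *SNAI2*, 0.06 of *CDH2* and 0 of *VIM*. All 7 values fell within the range of HT-1376, and all 7 were below the lowest of the other CAL-29 libraries. For *FN1* the level was 0.0211 of that in CAL-29 KK.

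The next question was whether WWOX or AP-2 moved these genes over the lines. In the model with 3 lines per variant and no term for the line, none of the 7 was called in any of the 5 variants against KK (WK, KA, KC, WA and WC, in this order below), and 0% of the 13022 genes were called in each (limma with Benjamini-Hochberg adjustment). At an unadjusted p under 0.05 there were 38, 7, 11, 37 and 84 genes and none of the 7, and DESeq2 on the recovered reads called 3, 2, 4, 3 and 9 genes, again none of the 7. The SE of a log2FC was 0.57 for *CDH3* and 1.97 for *FN1*, since the spread between lines stayed in the error. The lowest log2FC was that of *VIM* in every comparison, from −1.78 in KC/KK to −1.03 in KA/KK, and these values came from CAL-29 alone. The highest were 0.58 for *SNAI2* (WK/KK), 0.79 for *FN1* (KA/KK) and, for *CDH3*, −0.07 (KC/KK), 0.59 (WA/KK) and 0.58 (WC/KK).

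The KC/KK values turned when the library labelled CAL-29 KC was left out and the line was taken as a block. *FN1* had a log2FC of −1.22 with that library and of 0.08 in this fit, and *CDH3* had −0.07 and 0.31. Without all CAL-29 libraries and with no block, the values were 0.94 and 0.62. Neither gene was called in these fits (adjusted p = 1 for both). Without the block, leaving out that library did not turn the sign of either.

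With the line, WWOX and AP-2 as terms in 1 model of 17 libraries, 0% of genes were called for WWOX, AP-2α or AP-2γ (1598, 199 and 343 genes at an unadjusted p under 0.05). edgeR on the recovered reads called 16, 1 and 2 genes and limma-voom 70, 0 and 0, none of the 7 among them. For WWOX the log2FC ranged from −0.84 for *VIM* (SE 0.47) to 0.51 for *SNAI2* (SE 0.22, adjusted p = 0.380). For AP-2α it ranged from −0.51 for *VIM* to 0.76 for *FN1* (SE 0.67). For AP-2γ it ranged from −0.41 for *EPCAM* (SE 0.21) to 0.20 for *CDH3* (SE 0.28).

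The effect of the WWOX vector was then taken in each line, with the AP-2 vectors as terms common to the lines. In CAL-29, 3 WWOX libraries were set against 2 controls, and WC had no control with the same second vector. Its adjustment for AP-2γ thus rested in part on the other lines. *CDH3* rose in HT-1376. Its level there was 75.63 CPM in KK and 213.56 in WK, 98.61 in KA and 268.72 in WA, and 146.21 in KC and 285.97 in WC. Every WWOX library was above every control library, as for 12.8% of all genes in HT-1376, and the groups did not overlap in either direction for 35.6%. The ratio was 2.82 for WK/KK (95% exact counting interval 2.64 to 3.02), 2.72 for WA/KA (2.58 to 2.88) and 1.96 for WC/KC (1.86 to 2.06). In the fit the log2FC was 1.30 (SE 0.20, limma adjusted p = 0.00201), and *CDH3* was the only 1 of the 7 called, where 8.59% of all genes were. The sources used here do not say whether WK, WA and WC of a line shared the same first transduction. The p-values and overlaps for WWOX within a line may therefore not measure the spread between separate transductions.

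In RT-112 the *CDH3* ratios were 1.44, 1.10 and 1.01 (log2FC 0.22, SE 0.20, adjusted p = 0.926), and no gene was called in that line, or 0%, with 979 at an unadjusted p under 0.05. In CAL-29 they were 0.635 for WK/KK and 0.816 for WA/KA (log2FC −0.57, SE 0.23, adjusted p = 0.310). The test of the difference of the WWOX effect between the 3 lines gave an adjusted p of 0.0151 for *CDH3*, and 3.02% of genes passed it. It did not pass for the other members (adjusted p 0.0826 for *VIM* to 0.915 for *CDH1*). The *CDH3* call in HT-1376 was lost without the pair KK and WK (log2FC 1.20, adjusted p = 0.0614) and with the library labelled CAL-29 KC added (1.30, 0.0631). The difference between lines was lost without that pair (adjusted p = 0.212), without KA and WA (0.137) and with that library (0.332). Without the library labelled RT-112 WA, both calls were kept.

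The libraries came from carcinoma lines, and some genes known as markers of other cells moved with the same libraries of HT-1376. The summed level of 5 fibroblast markers was 5.4 to 16.09 CPM in the control libraries and 41.05 to 63.98 CPM in the WWOX libraries. *LUM* was at 0 in all controls and at most 0.22 CPM with WWOX. *COL3A1* did not rise, with 0 to 2.78 CPM in the controls and 0.11 to 0.22 CPM with WWOX. *COL1A1*, *COL1A2* and *THY1*, which carried most of the sum, also stand in the list of mesenchymal genes given last. *DCN* and *PDGFRB* were not analysed here. The summed level of the 10 urothelial and epithelial markers was 13663.2 to 15241.3 CPM and 9776.21 to 11056.3 CPM in the same groups. *KRT7* and *KRT18* made up most of that sum, and *KRT19* went the other way, from 12.62 to 94.93 CPM in the controls to 234.66 to 378.09 CPM with WWOX (log2FC 2.67, adjusted p = 0.00831). The endothelial markers *PECAM1*, *VWF* and *KDR* and the leukocyte markers *PTPRC*, *CD3E* and *LYZ* were not analysed here. *CDH5*, the only endothelial marker left, was at 2.1 to 4.11 CPM and 0.19 to 0.71 CPM. *CD68*, the only leukocyte marker left, rose from between 1.7 and 2.38 CPM to between 6.07 and 14.74 CPM. Its level in the control libraries was 6.58 to 11.75 CPM in RT-112 and 14.18 to 15.37 CPM in CAL-29. The part of these in the *CDH3* result was not tested. In bulk libraries of a line, more cells with a high level and more RNA per cell cannot be told apart.

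In CAL-29, the WWOX libraries had less of the mesenchymal *FN1*, *VIM* and *CDH2* and of *CDH3*, and more *SNAI2*, than the 2 controls, without overlap. Of all genes, 18.8% did not overlap in this line. For *VIM* and *CDH2* the gap was small and lay between WC and KA. It was between 1.57 and 1.88 CPM for *VIM* and between 6.19 and 7.02 CPM for *CDH2*. *FN1* was 865.19 CPM in KK and 157.46 in WK, a ratio of 0.182 (95% exact interval 0.175 to 0.189), and 998.95 CPM in KA and 420.81 in WA, a ratio of 0.421 (0.410 to 0.433). The WC library had 32.22 CPM, the lowest of the 5 libraries. The log2FC was −2.74 (SE 0.83), which did not pass over all genes (adjusted p = 0.161), and it lay between −3.65, without KA and WA, where it passed (0.0498), and −1.85 when libraries of 1 second vector were left out.

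*VIM* reached 5 CPM in CAL-29 KK alone, so it entered the fit through a control library, and its tests are given as a description. It had a ratio of 0.0056 for WK/KK (0.000676 to 0.0204) and 0.058 for WA/KA (0.00675 to 0.226), both from 2 reads in the WWOX library. Its log2FC of −3.04 (SE 0.64) did not pass (adjusted p = 0.0529), nor with edgeR (0.0997), but passed with limma-voom on the recovered reads (adjusted p = 0.0178). It also passed without KA and WA (adjusted p = 0.0136), where the remaining control was KK, and without a filter on low values (0.0311). Without KK and WK it was −1.26 (adjusted p = 0.652). *CDH2* had ratios of 0.0525 (0.0302 to 0.0854) and 0.513 (0.375 to 0.696) and a log2FC of −1.90 (SE 0.51, adjusted p = 0.116), which lay between −2.80 and −0.64 when libraries of 1 second vector were left out. The 2 controls were themselves far apart for both genes, KA having 0.0953 of the *VIM* and 0.393 of the *CDH2* of KK. No member was called in CAL-29, where 0.591% of genes were. The summed fibroblast markers were 10.52 to 17.99 CPM in the CAL-29 controls and 5.63 to 10.14 CPM in the WWOX libraries, and the urothelial and epithelial markers 3976.58 to 5056.38 CPM and 5634.39 to 8271.87 CPM. Their part in the CAL-29 values was not tested. The level of *WWOX* was 2.43-fold higher in WK than in KK and 1.35-fold higher in WA than in KA in this line. In WC it was 62.36 CPM, not above the 63.68 CPM of KK.

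*SNAI2* moved the other way, from 48.99 and 55.40 CPM in the CAL-29 controls to 68.18, 65.78 and 91.54 CPM in WK, WA and WC, with a log2FC of 0.62 (SE 0.41, adjusted p = 0.607). In HT-1376 its ratio was 2.18 for WK/KK, 0.936 for WA/KA and 2.81 for WC/KC, with a log2FC of 0.81 (SE 0.36, adjusted p = 0.171). Over the 8 pairs of libraries that differ in the WWOX vector, *SNAI2* was higher with WWOX in 7 and *EPCAM* lower in 7. Some ratios were near 1, such as 1.03 for *SNAI2* in RT-112 WC/KC and 0.962 for *EPCAM* in HT-1376 WK/KK. The share of all genes with such counts was not computed, and neither gene passed over the lines (limma adjusted p = 0.380 and 0.424). *CDH1* was lower in 5 of the 8 pairs, with a log2FC between −0.47 in HT-1376 and −0.21 in CAL-29. The CAL-29 ratios of *CDH1* were 0.687 for WK/KK and 1.63 for WA/KA.

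*FN1* in RT-112 was higher with WWOX in all pairs, 4.54 and 11.11 CPM in KK and WK, 4.37 and 7.04 CPM in KA and WA, and 7.43 and 23.33 CPM in KC and WC. The groups overlapped, since WA lay below KC, and the log2FC of 1.14 (SE 0.72) did not pass (adjusted p = 0.812). In HT-1376 the ratios were 1.67, 0.918 and 0.684, with a log2FC of 0.02. The difference between lines was not shown for *FN1* (adjusted p = 0.118). In RT-112 only *CDH2* of the 7 had groups that did not overlap, at 6 reads or fewer per library, where 21% of all genes did not overlap.

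**Figure D2:**
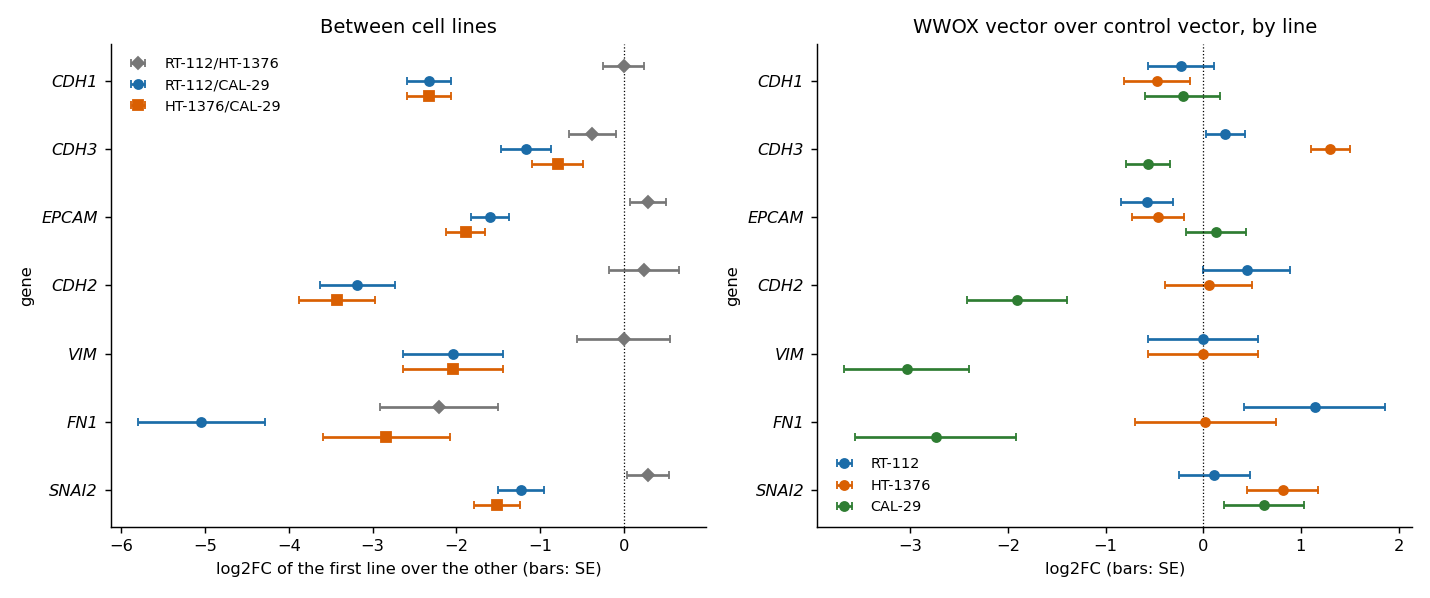
The left panel plots the log2FC between lines and the right panel the log2FC of the WWOX vector in each line (horizontal axes, bars are SE from limma) for the 7 genes (vertical axis). Points for RT-112/CAL-29 and HT-1376/CAL-29 all lie below 0, and in the right panel *CDH3* is at 1.30 in HT-1376, 0.22 in RT-112 and −0.57 in CAL-29.

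The ratios for the AP-2 vectors within a line were as large as those for WWOX for some genes but turned with the line or with the first vector. The level of *TFAP2A*, the gene of AP-2α, was 2.60 times that of KK in KA of RT-112, 1.46 times in HT-1376 and 1.41 times in CAL-29. In WA against WK it was 1.25, 0.909 and 1.41 times in the same lines, and *TFAP2C* was 3.20 times higher in the library labelled RT-112 WA. The ratios for WA/WK in RT-112 and HT-1376 thus rest on libraries with little or no rise of *TFAP2A* as counted. As for *WWOX*, a vector transcript need not be counted at the native gene, so these levels do not show whether AP-2α itself rose. *FN1* with AP-2α had ratios of 4.77 (KA/KK) and 2.61 (WA/WK) in HT-1376. The same ratios were 1.15 and 2.67 in CAL-29 but 0.961 and 0.634 in RT-112. With AP-2γ it had 1.64 and 2.10 in RT-112, 2.39 and 0.974 in HT-1376, and 0.205 for WC/WK in CAL-29. *SNAI2* in RT-112 was lower in all 4 comparisons of an AP-2 vector with its control, at 0.563 to 0.692, whereas with AP-2α in HT-1376 it had 2.90 and 1.25.

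*CDH2* and *VIM* in CAL-29 were lower with AP-2α when WWOX was not given (0.393 and 0.0953 for KA/KK). When WWOX was given, *CDH2* was 3.83 times higher in WA and 6.59 times higher in WC than in WK, and *VIM* was 14.2 times higher in WC than in WK (95% exact interval 3.59 to 123). These are single libraries, and the intervals cover counting error only. *CDH1* in CAL-29 had ratios of 0.523 for KA/KK, 1.24 for WA/WK and 0.476 for WC/WK.

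**Figure D3:**
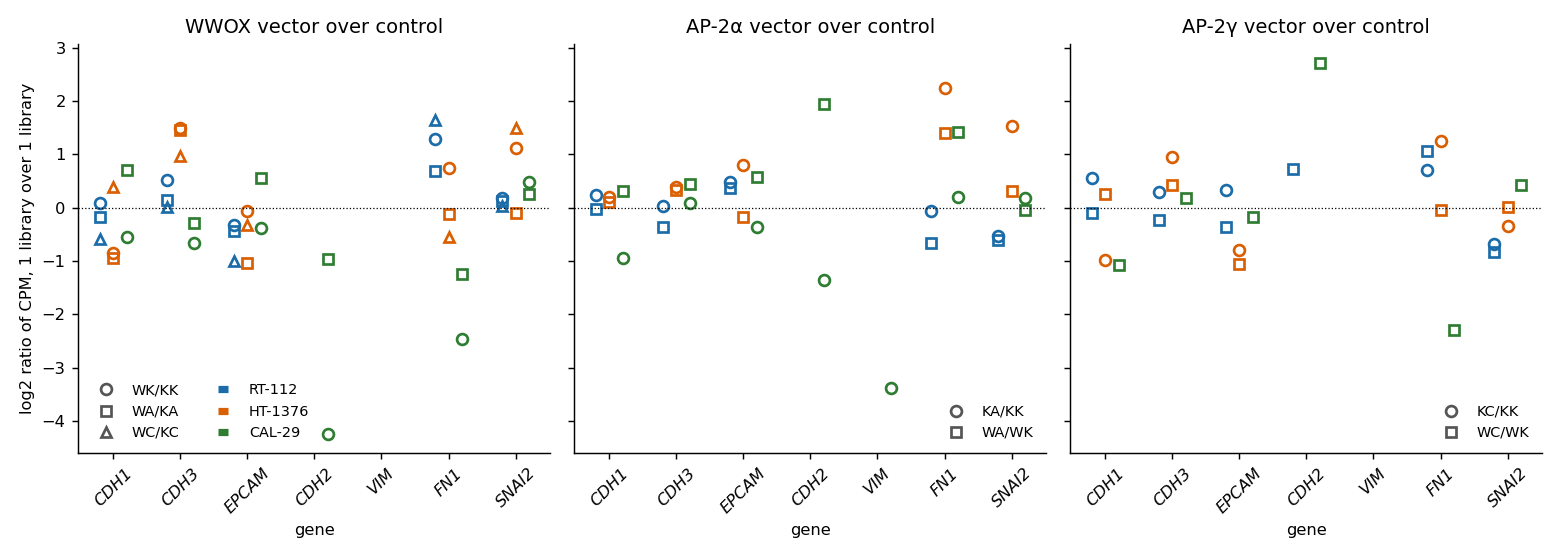
Each point is the log2 ratio of the CPM of 1 library over that of another of the same line (vertical axis) for the 7 genes (horizontal axis), in 3 panels for WWOX, AP-2α and AP-2γ, with the marker giving the pair and the colour the line. Pairs with 3 reads or fewer in a library or with the library labelled CAL-29 KC are left out, so that *VIM* has 1 point, and *FN1* has points far from 0 on both sides in every panel except AP-2α, where the lowest is −0.66.

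Libraries were then compared after the mean of each line was subtracted on the log2 scale, over 17 libraries, as a description that shares these libraries. Among the 7 genes, *CDH2* and *VIM* had the highest Pearson r (0.867), which rests on CAL-29, and *CDH1* and *EPCAM* the next (0.647). *CDH1* and *CDH3*, neighbours on chromosome 16, had −0.332. Over the genes that reached 5 CPM in 5 libraries or more, those most like *CDH1* were *KIAA1671* (0.936) and *MFSD14CP* (0.931), and those most like *EPCAM* were *ABHD10* (0.907) and *MCUR1* (0.901). *CDH3* was nearest to *CHST15* (0.941) and *PICSAR* (0.933), *CDH2* to *RGS20* (0.925) and *COL4A2* (0.838), and *VIM* to *GPR37* (0.863) and *EIF4B* (0.838). The values for *CDH2* and *VIM* again rest mainly on CAL-29, where most *VIM* reads were in KK. For *FN1* they were *PLIN2* (0.859) and *NSMF* (0.854), and for *SNAI2* *IRS1* (0.853) and *DDA1* (0.845).

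Other genes of the same process were taken from lists. Among the 17 libraries, some of these reached 5 CPM in 1 line alone. Such genes were *KLF8*, *NECTIN3*, *DSG3* and *COL5A2* in CAL-29, *TWIST1* and *FBN1* in HT-1376, and *CDX2* in RT-112, among others. As for *CDH2* and *VIM*, the filter tilted their comparisons towards that line, and the counts below include them. Of 12 other EMT transcription factors, 5 passed the filter and 4 were called in RT-112/CAL-29, 1 higher in RT-112 and 3 lower, where 71.5% of all genes were called, with a median log2FC of −1.74 against −0.84 for all genes. In HT-1376/CAL-29, 3 were called, where 61% of all genes were. *TWIST1*, a basic helix-loop-helix factor, was at 0 in RT-112, 4.74 to 26.38 CPM in HT-1376 and 1.80 to 4.04 CPM in CAL-29, so the line with the most *TWIST1* was one without *VIM* reads. *SOX4* had a mean of 170.7 CPM in RT-112, 15.5 CPM in HT-1376 and 582.4 CPM in CAL-29. *KLF8* was at 0 in RT-112 and had 2.51 and 4.20 CPM in the other lines. With the WWOX vector in HT-1376, 1 of the 5 was called, *SOX4* (log2FC 1.39, SE 0.39, adjusted p = 0.0407), where 8.59% of all genes were.

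Of 16 regulators of the epithelial state, 13 passed the filter, of which 10 were called in RT-112/CAL-29, 8 of them lower in RT-112 (median −0.85, all genes −0.84), and 7 in HT-1376/CAL-29, all lower in HT-1376 (median −1.11, all genes −0.47). Of all genes, 71.5% and 61% were called in these comparisons. *FOXA1*, a pioneer factor of luminal cells, had a mean of 39.8 CPM in RT-112 and 97.3 CPM in CAL-29 but at most 0.14 CPM in HT-1376. *KLF4* had 74.55 CPM in HT-1376, 52.1 in CAL-29 and 5.85 in RT-112, and *KLF5* had 32.6, 161.0 and 79.3 CPM. *CDX2*, an intestinal factor, was at 7.15 CPM in RT-112 and at most 0.19 CPM elsewhere. In HT-1376, *OVOL1* was higher (log2FC 2.17, adjusted p = 0.0126) and *GRHL2* lower (−1.21, adjusted p = 0.0332) in the libraries with the WWOX vector, both named after their values were seen.

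In the cadherin-catenin complex, 11 of 14 genes passed the filter and 8 were called in each comparison with CAL-29, 7 of them higher in CAL-29. *NECTIN3*, among these, passed the filter through CAL-29 alone. The background was 71.5% of genes called in RT-112/CAL-29 and 61% in HT-1376/CAL-29, with 56.2% and 43.4% of all genes called higher in CAL-29. The list medians were −1.60 and −0.90, those of all genes −0.84 and −0.47. *CTNND1*, p120-catenin, which keeps cadherins at the membrane, had mean levels of 27.1, 57.0 and 205.7 CPM in RT-112, HT-1376 and CAL-29. *CTNNA1*, α-catenin, had 19.4, 65.3 and 109.1 CPM, *VCL*, vinculin, 21.5, 31.1 and 108.4 CPM, and *NECTIN3* 0.178, 0.54 and 3.22 CPM. In HT-1376, *NECTIN1* was higher (log2FC 1.32, adjusted p = 0.00158) and *PLEKHA7* lower (−1.69, adjusted p = 0.00682) in the libraries with the WWOX vector, both named after their values were seen. Of 19 other cadherins, 2 passed the filter. *CDH24* had 12.8, 4.62 and 8.66 CPM in the 3 lines, and *CDH5*, VE-cadherin of endothelium, had 0.48, 1.74 and 0.532 CPM and fell with WWOX in HT-1376 (log2FC −2.01, adjusted p = 0.00300). *CDH5* passed the filter through the library labelled CAL-29 KC alone.

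Of 20 desmosome and epithelial surface genes, 18 passed the filter. In RT-112/CAL-29, 9 were called lower and 1 higher in RT-112 (median −0.92), and in HT-1376/CAL-29, 5 lower and 3 higher in HT-1376 (median −0.27). All genes had medians of −0.84 and −0.47, and 71.5% and 61% of them were called, so a smaller share of this list was called than of all genes. *DSG3*, a desmoglein of basal cells, had at most 0.11 CPM in RT-112, 1.49 CPM in HT-1376 and 17.2 CPM in CAL-29. *DSC2* had 0.782, 22.4 and 15.0 CPM, *DSC3* 3.64, 37.3 and 17.2 CPM, and *CDS1* 2.42, 9.68 and 12.9 CPM. With WWOX in HT-1376, 4 of the 18 were called, 1 higher and 3 lower, where 8.59% of all genes were called.

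Among 29 other mesenchymal genes, 25 passed the filter and did not share 1 direction. In RT-112/CAL-29, 5 were called higher and 9 lower in RT-112 (median −0.47, above the −0.84 of all genes), and in HT-1376/CAL-29, 5 higher and 7 lower in HT-1376 (median −0.66, all genes −0.47), where 71.5% and 61% of all genes were called. *COL5A2*, a fibrillar collagen, had 39.2 to 130.2 CPM in CAL-29 and at most 0.11 CPM in the other lines. *LOXL2*, a collagen crosslinker, had means of 1.49, 45.3 and 168.2 CPM in RT-112, HT-1376 and CAL-29. By contrast, *S100A4*, a calcium-binding protein of motile cells, had 362.8 CPM in RT-112, 2209 CPM in HT-1376 and 8.96 CPM in CAL-29, and *FBN1*, fibrillin, 28.2 CPM in HT-1376 and a mean of 0.14 CPM in RT-112 and 0.296 CPM in CAL-29. With the WWOX vector, 10 of the 25 were called in HT-1376, 7 higher and 3 lower (median 0.63, all genes −0.13), where 8.59% of all genes were, and none in RT-112 or CAL-29. Of the 10, *COL1A2* and *THY1* reached 5 CPM in WWOX libraries of HT-1376 alone and so entered the fit through the group where they were high. *S100A4* fell (log2FC −2.11, adjusted p = 0.0121), as did *FBN1* (−1.68, adjusted p = 0.0105). The difference between lines passed for 2 of the 25, where 3.02% of all genes passed, named after their values were seen, *COL1A2* (adjusted p = 0.00604, log2FC 3.14 for HT-1376, 0.00 for RT-112, 0.07 for CAL-29) and *TNC* (adjusted p = 0.0202, log2FC 3.93, −0.13 and −2.41).

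**Figure D4:**
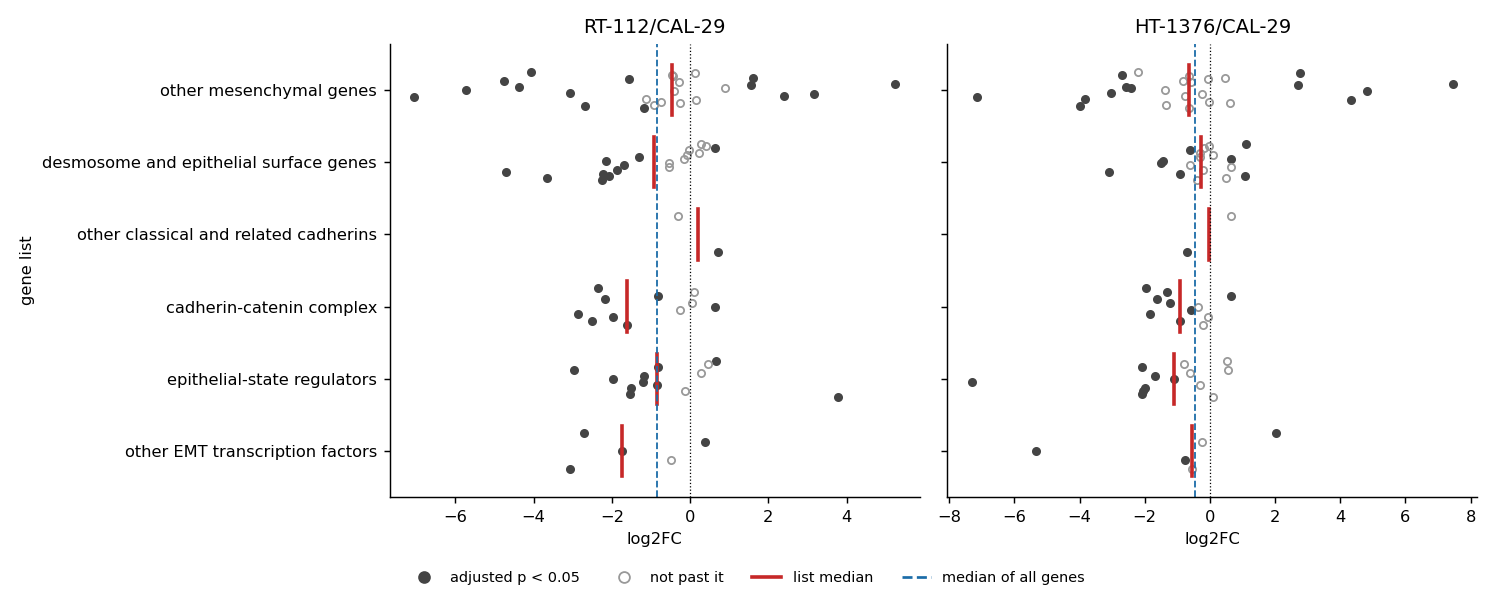
Each point is 1 gene of a list (vertical axis) with its log2FC (horizontal axis) in RT-112/CAL-29 (left) and HT-1376/CAL-29 (right), filled where the adjusted p was under 0.05, with the list median as a red bar and the median of all genes dashed. Points of the cadherin-catenin complex lie mostly below 0, and those of the mesenchymal list spread to both sides.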

How the data were processed

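The authors mapped CAGE reads to hg38 with BWA and HISAT2 2.0.5, clustered tags with Paraclu and the irreproducible discovery rate, and deposited 1 CPM value per gene and library, rounded to 2 decimals. The annotation and the total behind the CPM are not given in the sources used here. Identifiers were joined to GENCODE 44 (16553 of 16575 matched), whose GRCh38 positions are printed. Reads were recovered from the deposited CPM, of which 99.97% to 99.99% were whole multiples of 1 read within rounding (0.005 CPM), and the worth of 1 read in RT-112 WC was found with all genes. No 2 libraries of a line were duplicates (smallest chi-square per degree of freedom 19.4).

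The 13022 genes that reached 5 CPM in any library were fitted as log2(CPM + 0.5) in limma 3.58.1 (R 4.3.3) with a trended variance and Benjamini-Hochberg adjustment. The study used limma-voom without a block. Fits were made for the variants against KK (18 libraries), the lines, the 3 vectors, and WWOX nested in the line (17 libraries, without the one labelled CAL-29 KC). Low values are understated by the pseudocount. The line pairs libraries by design, with correlations of deviations of 0.588 to 0.896 (HT-1376), 0.663 to 0.881 (CAL-29) and 0.742 to 0.915 (RT-112). The labels do not say whether libraries came from separate cultures, so p-values may measure technical spread. Exact binomial intervals (95%) and the limit of 3 reads cover counting error only, and CAGE tags without molecular identifiers are not independent molecules. The fits were repeated with pseudocounts of 0.05 and 2 CPM, without the filter, with TMM scaling, limma-voom, edgeR 4.0.16 and DESeq2 1.42.0 on the recovered reads, with the line as a block, and with libraries left out. The fits without the library labelled RT-112 WA, and edgeR with the block, were added after the data were seen. A log2FC that rounds to 0.00 was given no direction. Scripts were tested on simulated data.

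The members and lists were chosen with earlier results of these data known. Named genes were the members, up to 4 per list with the largest difference between lines, and the 2 most like each member. A gene that the rule named is not reported here. Other measurements of the study were not analysed here.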

Additional observations from a re-analysis of the deposited data

Results flagged for a closer look

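*CDH3* is listed here because its response to the WWOX vector differed between the 3 lines by a moderated F-test (adjusted p = 0.0151), with log2FC of 1.30 in HT-1376, 0.22 in RT-112 and −0.57 in CAL-29.

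In 3 of 19 groups of libraries (1 gene in 1 line), 1 library lay far from the others by Dixon's criterion on CPM. Chance meets it in about 1 of 20 groups of normally distributed values, a rate that need not hold for skewed CPM or values near 0. *VIM* in CAL-29 was 19.73 CPM in KK, against 1.88 CPM in the next library. *FN1* in RT-112 was 23.33 CPM in WC, against 11.11 CPM in the next. *CDH2* in HT-1376 was 0.06 CPM in WK, a single read, and 0 in the rest.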

How the results depend on the processing

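With the line as a replicate block, limma called 0 genes against KK, as without it. edgeR with the block and without the library labelled CAL-29 KC called 1 gene for KA, 3 for KC, 1 for WA and 2 for WC, and DESeq2 without the block called 3 for WK, 2 for KA, 4 for KC, 3 for WA and 9 for WC. None was a member. *CDH3* in KC/KK turned from −0.07 to 0.03 (TMM), 0.04 (limma-voom), 0.31 (block without that library) and 0.23 (the same with edgeR), and *FN1* from −1.22 to 0.08 (block without that library). *CDH1* with WWOX in CAL-29 turned from −0.21 to 0.32 with all 18 libraries.

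For WWOX over the lines, 2 genes were called with a pseudocount of 0.05 CPM, 70 with limma-voom and 16 with edgeR, which also called 1 for AP-2α and 2 for AP-2γ. WWOX in RT-112 gave 3 genes (0.05 CPM), 1 (2 CPM), 2 (no filter) and 2 (TMM). In CAL-29 it gave 39 (0.05 CPM), 146 (no filter) and 24 (edgeR), with 1 member, *VIM*, called without the filter and with limma-voom. In HT-1376 all 18 libraries gave 241 genes and 0 members. The difference between lines held 661 genes (no filter), 231 (limma-voom), 151 (without the library labelled RT-112 WA) and 0 genes and members (all 18 libraries). The members called in RT-112/HT-1376 were 3 (TMM), 2 (limma-voom) and 2 (edgeR).

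Leaving out libraries gave 0 to 1 members in RT-112/HT-1376, 0 to 6 genes for WWOX over the lines, 109 to 679 genes and 0 to 1 members for WWOX in HT-1376, 5 to 776 genes and 0 to 2 members in CAL-29, and 1 to 193 genes and 0 to 1 members for the difference. The log2FC of *CDH3* then ranged from −0.58 to 0.62 for KC, −0.02 to 0.99 for WA and −0.09 to 1.11 for WC, and that of *FN1* from −2.44 to 0.94 for KC. With WWOX, *FN1* ranged from −0.33 to 0.30 in HT-1376, *CDH1* from −0.94 to 0.23 and *EPCAM* from −0.27 to 0.58 in CAL-29. Of the member values under all alternatives, 784 kept their direction and call, 21 lost a call, 9 gained one and 14 turned. The cause was not tested. Depth limits *CDH2* outside CAL-29 and *VIM* in CAL-29 WK and WA, at 6 reads or fewer per library.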
